A study of Mus musculus with 20 samples.

Results

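Solute carriers are membrane proteins that move ions, metals, sugars, nucleotides, vitamins and metabolic acids across the cell surface and the membranes of organelles. Those followed here are the genes whose symbol on the array begins with Slc and a family number, without 10 carriers of amino acids, glucose and lactate that were set aside (Slc2a1, Slc16a3, Slc1a1, Slc1a5, Slc38a3, Slc38a4, Slc3a2, Slc6a9, Slc7a1 and Slc7a5). The rule gave 246 genes with 265 probes, out of 256 genes with such a symbol. It did not use any measured value. Amino acid carriers were not all removed by it: 25 genes of the amino acid families Slc1, Slc3, Slc7, Slc36, Slc38 and Slc43 remained, as did the amino acid carriers among the Slc6 and Slc66 families. A few symbols do not stand for carriers at all, such as the scaffold proteins Slc9a3r1 and Slc9a3r2, the adaptor Slc4a1ap and the opposite-strand genes Slc7a6os and Slc6a19os.

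The cells were Hepa1-6, an established mouse hepatoma line, grown to confluence in medium with 25 mM glucose. Control flasks held 4 mM glutamine throughout, and the other flasks were switched between 0 and 4 mM glutamine at medium exchanges at the start and after 24, 48 and 72 h of a 96 h course. Each array paired control RNA labelled with Cy3 with RNA of the glutamine-varied flasks labelled with Cy5, and 20 arrays covered 11 numbered time points. The labels do not date the samples of a numbered time point. Except on an array of time point 4, they do not state what glutamine the varied flasks then held. Nor do they say whether the second array of a time point, titled r, came from another flask. P-values of the F test and of single time points therefore measure the spread between these arrays, which may be technical. Those of the mean over time points measure the spread between time-point means.

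All values are log2 ratios set against the array median, and values above 0 likely stand for more RNA in the flasks with varied glutamine. These are bulk samples, so fewer cells of a type and less RNA per cell cannot be told apart. Because the dyes were never swapped, a lasting dye preference of a probe and a lasting difference between flasks cannot be told apart in a mean. Array medians as deposited lay between 0.05 and 0.435. Without centring every ratio is higher by that amount, and directions hold only relative to the median probe. The second arrays of time points 6 and 10 stood apart: their correlation with the first array of the same time point was 0.0539 and -0.0168, against 0.518 to 0.691 at the 7 other time points with a pair. They were left out, which leaves 18 arrays. On the arrays of time points 5 and 6, probes at the start of each run of 20 probe numbers sat high. At time point 5 the median was 2.72 at position 1, 1.24 at position 2, 0.46 at position 3 and 0.14 at position 4, and at time point 6 it was 1.28, 0.33, 0.13 and 0. On the other 16 arrays the medians of these positions lay between -0.095 and 0.08. Only position 1 was blanked on both arrays, so the medians of positions 2 to 4 at time point 5, and of positions 2 and 3 at time point 6, stayed above 0 there. Values with positions 1 to 4 blanked are given as well for called means and time courses of members at positions 2 to 4. They are also given for the means of Slc29a2, Slc2a4 and Slc2a8. The remaining values of time point 5 were still the widest, with an SD of 0.649 over all probes. The SD was 0.424 on the array of time point 6, 0.451 and 0.418 on the arrays of time point 7, and 0.261 to 0.418 on the 14 others. The arrays gave between 4269 and 8269 values each, and their number limits the precision. Of the hepatocyte markers on the array, 6 of 10 had a value at 9 or more time points, among them Alb and Apoa1, while Afp had none. All 3 macrophage markers on the array had no value, and 2 of 5 fibroblast markers had a value at 9 or more time points.

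Mammalian cells use these carriers to keep gradients of ions and metals and to divide metabolism between compartments. Members of the Slc25 family exchange metabolites across the inner mitochondrial membrane and thereby connect mitochondrial and cytosolic pathways, glutamate and aspartate among them. Slc39 proteins bring zinc into the cytosol, and Slc30 proteins move it out of the cell or into organelles. In hepatocytes, other families take up bile acids, organic ions and fatty acids from blood.

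Promoter sequence is shown for 3 members whose ratios moved together over time, as described further on: Slc44a4, which carries thiamine pyrophosphate, Slc5a8, a sodium-coupled carrier of short monocarboxylates, and Slc39a1, a zinc importer of the cell surface. Each line holds the 250 bases before the RefSeq start on GRCm38.p6, 5′ to 3′ on the gene's strand. Capitals mark GC boxes (GGGCGG, either strand, the site of Sp1 factors) and CCAAT boxes (CCAAT, either strand). No GC box overlapped a CCAAT box.
Slc44a4 (chr17:34914216-34914465, plus strand): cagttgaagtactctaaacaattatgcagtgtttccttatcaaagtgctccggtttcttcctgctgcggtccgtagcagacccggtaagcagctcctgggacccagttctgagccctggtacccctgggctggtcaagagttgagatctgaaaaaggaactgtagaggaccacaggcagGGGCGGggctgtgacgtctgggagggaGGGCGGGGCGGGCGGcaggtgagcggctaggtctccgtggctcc
Slc5a8 (chr10:88885742-88885991, plus strand): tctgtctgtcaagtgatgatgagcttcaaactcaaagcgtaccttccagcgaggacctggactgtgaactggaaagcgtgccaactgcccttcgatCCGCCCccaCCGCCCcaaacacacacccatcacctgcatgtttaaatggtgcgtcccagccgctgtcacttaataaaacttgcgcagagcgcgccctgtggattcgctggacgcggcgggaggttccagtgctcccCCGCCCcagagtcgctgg
Slc39a1 (chr3:90247942-90248191, plus strand): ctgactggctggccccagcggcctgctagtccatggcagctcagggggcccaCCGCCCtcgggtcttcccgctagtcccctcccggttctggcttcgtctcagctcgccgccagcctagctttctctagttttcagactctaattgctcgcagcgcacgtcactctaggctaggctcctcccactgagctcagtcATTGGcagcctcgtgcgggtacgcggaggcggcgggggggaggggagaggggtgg
The window of Slc44a4 held 4 GC boxes, that of Slc5a8 held 3 and that of Slc39a1 held 1, beside 1 CCAAT box. A promoter was found for 198 of the 246 genes, with the first listed start of each gene. A GC box stood in 103 of these (52%), against 32.9% of all 27025 promoters of the table. The members' promoters also had a higher median GC content, 57.6% against 52%. The core of the metal response element, the site of the zinc-sensing factor Mtf1 (TGCACNC or TGCGCNC, either strand), stood in 7 of 14 promoters of zinc carriers, in 28.3% of the members' promoters and in 21.3% of all promoters. The same 14 promoters also held a GC box in 10 and a CCAAT box in 7, and the printed window of Slc39a1 held 0 metal response element cores. These matches describe letters in a window and not binding.

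Of the 246 genes, 166 had a value on at least 1 of the 18 arrays and 80 had none. Values were present at 9 or more time points for 77 genes, at 6 to 8 for 30 and at 1 to 5 for 59. Another 18 genes had values only on the arrays left out. Coverage differed between substrate groups, which were formed by family number. Of the mitochondrial family Slc25, 21 of 34 genes had a value and 13 could be tested. Of the zinc families 15 of 16 had a value and 8 could be tested, and of the families named for sugars 16 of 21 and 8. Of the carriers of sodium, potassium, chloride, bicarbonate, protons and calcium, 16 of 30 had a value and 6 could be tested. Among the amino acid carriers that the rule left in, Slc38a2, a glutamine carrier, had values on 2 arrays, and the cystine carrier Slc7a11 had none.

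The mean over time points asks which carriers lay away from the median probe throughout the course. Of the 77 tested, 14 were higher and 10 were lower. That is 18.2% and 13% of them, near the background of 21.2% higher and 12.2% lower among the 4398 genes tested (33.4% in either direction), so the counts are no result about the class. The members' median ratio was 0.03, as was that of all genes tested. On all 20 arrays, with no spot blanked, 10 of 82 members were higher and 13 lower, against 13.6% and 9.05% of all genes. Later results on all 20 arrays use this setting too. Without centring 49 members were called higher and 0 lower by limma. Every gene's ratio is then higher by the array median, and the share of all genes was not counted.

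**Figure D1:**
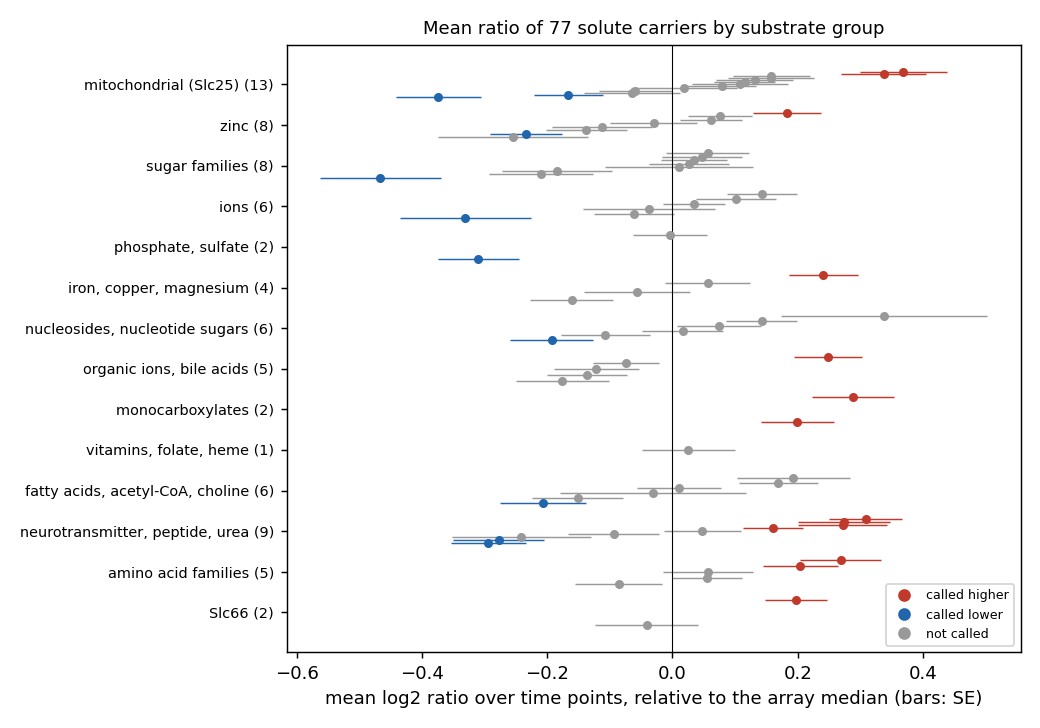
Mean log2 ratio over time points (horizontal axis, relative to the array median) of the 77 tested members, 1 point per gene with its moderated SE, in rows by substrate group with the number tested. Red points were called higher (14), blue points lower (10) and grey points not called (53). Most groups hold members on both sides of 0.

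The mitochondrial carriers were split: 2 of 13 were higher, 2 were lower and 9 were not called, with a median of 0.11. Slc25a17, a peroxisomal member of the family that carries coenzyme A, FAD and NAD, had the highest mean of all members at 0.37 ± 0.20 (SD, n = 9 time points, limma adjusted p 0.0014). It was positive at all 9. Its time-point means ran from 0.08 to 0.32 at time points 1 to 4 and from 0.43 to 0.64 at time points 7 to 11, the highest at time point 11. By the F test of limma it did not differ among time points (adjusted p 0.28). The arrays of time point 1 lay at 0.43 and -0.28. It has a spot at a raised position and so no value at time points 5 and 6.

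Slc25a26, which brings S-adenosylmethionine into mitochondria, was higher at 0.34 ± 0.23 (n = 11, adjusted p 0.0017) and positive at every time point. It reached 0.80 and 0.66 on the arrays of time point 7. This mean joins 2 probes that disagreed. Probe 9533 had values on 18 arrays and a mean of 0.44 ± 0.19, whereas probe 499 had values on 7 arrays and a mean of -0.26 ± 0.13 over 5 time points. The positive call rests on the first of them.

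Slc25a30, the kidney mitochondrial carrier, was the lowest of the family at -0.37 ± 0.23 (n = 11, adjusted p 0.00081). It was negative at every time point, with the lowest values at time points 10 (-0.81) and 5 (-0.75). Slc25a24, a calcium-regulated exchanger of ATP-magnesium and phosphate, was lower at -0.17 ± 0.14 (n = 10, adjusted p 0.032). Its call was lost in 11 of 25 repeats that left out 1 time point or 1 array, and without centring its mean was 0.08.

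Other members of the family were not called. The mitochondrial glutamate carrier Slc25a22 had a mean of 0.16 ± 0.23 (n = 11, adjusted p 0.093). It was positive at 9 time points and lay at -0.31 and -0.26 at time points 6 and 10. The aspartate-glutamate exchanger Slc25a12 had a mean of 0.02 ± 0.31 (n = 11, adjusted p 0.88), which hides a change over time given below. The carnitine-acylcarnitine carrier Slc25a20 lay at 0.13 ± 0.19 (adjusted p 0.11) and the glutathione carrier Slc25a39 at 0.16 ± 0.19 (adjusted p 0.059), both with n = 11. The phosphate carrier Slc25a3 had values at 7 time points only. When 6 were enough it was lower, at -0.31 ± 0.20 (n = 7, adjusted p 0.015).

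Among zinc carriers 1 of 8 was higher and 1 lower. Slc30a6, which loads zinc into the Golgi, was higher at 0.18 ± 0.15 (SD, n = 11, limma adjusted p 0.018), positive at 10 time points and -0.17 at time point 6. Slc39a13, which releases zinc from intracellular stores, was lower at -0.23 ± 0.17 (n = 11, adjusted p 0.0061) and negative at every time point, while without centring its mean was 0.02. Slc39a1 had a similar mean of -0.25 ± 0.47, but its spread was too wide for a call (adjusted p 0.11). Metallothionein Mt2, the 1 measured gene of 4 listed for zinc buffering, lay at -0.08 ± 0.31 (n = 11, adjusted p 0.52), and it differed among time points (adjusted p 0.0066).

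Of 8 tested genes of the sugar families, 1 was lower. Slc37a2, an exchanger of glucose 6-phosphate and phosphate in the endoplasmic reticulum, was the lowest of all members at -0.47 ± 0.33 (n = 9, adjusted p 0.0027). All 9 time-point means were negative, the least at time point 9 (-0.04) and the most at time point 5 (-1.12). Its relative Slc37a4, the glucose 6-phosphate carrier of liver, lay at 0.06 ± 0.20 (n = 10, adjusted p 0.54). The insulin-responsive glucose carrier Slc2a4 lay at -0.18 ± 0.31 (n = 10, adjusted p 0.12) and the intracellular glucose carrier Slc2a8 at -0.21 ± 0.27 (n = 9, adjusted p 0.066). Their spots lie at positions 4 and 3. With the first 4 positions blanked at time points 5 and 6, the means were -0.31 ± 0.17 (n = 8) and -0.25 ± 0.26 (n = 7). These had too few time points for the test. The urate and sugar carrier Slc2a9 was measured at 6 time points, all negative, and was lower there at -0.51 ± 0.20 (adjusted p 0.0021 among genes with 6 or more).

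Among ion carriers 1 of 6 was lower, Slc12a8, a member of the cation-chloride cotransporter family, at -0.33 ± 0.40 (n = 11, adjusted p 0.024). This call was lost without time point 6 (-0.28, adjusted p 0.055) or without time point 7 (-0.27, adjusted p 0.052). Slc13a2, which takes up dicarboxylates such as succinate, was lower at -0.31 ± 0.21 (n = 11, adjusted p 0.0024) and negative at every time point. Slc41a3, a magnesium carrier, was higher at 0.24 ± 0.16 (n = 11, adjusted p 0.0040). It was positive at 10 time points and -0.03 at time point 5, and its adjusted p was 0.30 on all 20 arrays. Of 12 listed ion pumps 1 could be tested, Atp2a3, at -0.13 ± 0.22 (n = 10, adjusted p 0.16). Of 12 listed carbonic anhydrases 4 could be tested, of which Car6 (0.45) and Car8 (0.17) were higher and the mitochondrial Car5b (-0.30) was lower.

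Both tested members of the monocarboxylate family were higher. Slc16a8, a lactate carrier, lay at 0.29 ± 0.22 (SD, n = 11, limma adjusted p 0.0039), with 0.50 at time point 1, 0.55 at time point 5 and -0.20 at time point 10. It has a spot at position 3, and with the first 4 positions blanked its mean was 0.24 (adjusted p 0.015). Slc16a14, a carrier of little-known substrate, lay at 0.20 ± 0.18 (n = 11, adjusted p 0.016), and its adjusted p was 0.051 without the second array of time point 1. A median over 2 genes says little about the family.

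The families of neurotransmitter carriers, peptide carriers and related proteins had the most calls. Of 9 tested, too few for a result about these families, 4 were higher and 2 lower, against 21.2% and 12.2% of all genes. The higher ones were Slc6a19, a carrier of neutral amino acids, at 0.31 ± 0.17 (n = 11, adjusted p 0.0010), Slc18a3, the vesicular acetylcholine carrier, at 0.27 ± 0.24 (n = 10), Slc6a20a, a proline carrier, at 0.27 ± 0.24 (n = 11) and Slc6a5, a glycine carrier, at 0.16 ± 0.11 (n = 11). Slc6a19 was positive on all 18 arrays, between 0.05 and 0.63. On all 20 arrays Slc6a19 stayed higher (0.34, adjusted p 0.0038), while the adjusted p was 0.22 for Slc18a3, 0.11 for Slc6a20a and 0.14 for Slc6a5. The lower ones were both carriers of the GABA group: Slc6a13, which also takes up taurine, at -0.29 ± 0.18 (n = 11, adjusted p 0.0018), and the betaine carrier Slc6a12 at -0.28 ± 0.25 (n = 11, adjusted p 0.0089). Each was negative at 10 of 11 time points. Another GABA carrier, Slc6a11, was not called in the mean, at -0.09 ± 0.25 (n = 11, limma adjusted p 0.34).

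Single members were called in most other groups. Slc22a17, a receptor for lipocalin, was higher at 0.25 ± 0.15 (n = 11, adjusted p 0.0028) and positive at every time point. The glutamate carrier Slc1a6 was higher at 0.20 ± 0.18 (n = 11, adjusted p 0.016), also positive at every time point, with 0.74 at time point 6, on an array where its position 3 sat high. With the first 4 positions blanked its mean was 0.14 (adjusted p 0.038). The lysosomal carrier of basic amino acids Slc66a1 was higher at 0.20 ± 0.12 (n = 11, adjusted p 0.0070, and 0.058 on all 20 arrays). Slc7a6os, which lies on the strand opposite Slc7a6, was higher at 0.27 ± 0.21 (n = 11, adjusted p 0.0058). Whether its probe tells the strands apart was not tested. Of the 25 genes of the amino acid families, Slc7a4 and Slc7a15 had values on all 18 arrays and means of 0.06 each, not called, and Slc43a3, on 12 arrays, lay at -0.09 ± 0.22 (n = 10, adjusted p 0.36). Slc38a10 and Slc7a10 had values on 9 arrays each, and 8 others, Slc38a2 among them, on 1 to 5. The 10 without a value were Slc1a3, Slc7a2, Slc7a3, Slc7a8, Slc7a9, Slc7a11, Slc36a1, Slc36a1os, Slc38a1 and Slc38a9. The scaffold genes Slc9a3r1 and Slc9a3r2, with 2 and 5 arrays, could not be tested.

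The fatty acid carrier Slc27a4 was lower at -0.21 ± 0.21 (n = 10, adjusted p 0.031), and so was Slc35e3, of the nucleotide sugar families, at -0.19 ± 0.22 (n = 11, adjusted p 0.034). Both calls were fragile, since they were lost in 10 and 8 of 25 repeats that left out 1 time point or 1 array. Without centring Slc27a4 and Slc35e3 lay at 0.06 each. The nucleoside carrier Slc29a2 had a mean of 0.34 ± 0.62 (n = 9, adjusted p 0.13), the second highest of all members. Its values were 1.49, 0.89 and 0.98 at time points 5, 6 and 7 and lay between -0.22 and 0.15 at the other 6, so that its mean came from 3 neighbouring time points. Its spot lies at position 3, which sat high at time points 5 and 6, and without these values its mean was 0.09 ± 0.41 (n = 7).

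Among the 30 members with values at 6 to 8 time points, 8 were lower (26.7%) and 1 was higher (Slc22a21, a carnitine carrier, at 0.26 ± 0.25, n = 7) when 6 time points were enough. All 1816 genes with 6 to 8 time points had the same lean, with 19.7% lower and 1.6% higher, so it is no result about the carriers. Over all 6214 genes with 6 or more time points, 13.9% were lower and 14.8% higher. The lower ones included Slc8a3, a sodium-calcium exchanger, at -0.52 ± 0.40 (n = 8), the vitamin C carrier Slc23a2 at -0.42 ± 0.27 (n = 8), the amino acid carrier Slc6a14 at -0.33 ± 0.16 (n = 8) and the zinc importer Slc39a3 at -0.31 ± 0.22 (n = 7). Slc2a9 and Slc25a3, given above, were among them, as were Slc25a35 at -0.25 ± 0.14 (n = 6) and the vesicular nucleotide carrier Slc17a9 at -0.24 ± 0.18 (n = 7). How the submitters chose which spots to leave empty is unstated, and its part in this result was not tested.

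Differences among time points cancel a constant dye bias, so they ask which carriers moved during the course. By the F test of limma, 12 of 62 members with a value on 14 or more arrays differed among time points. This share was 19.4%, while 30.6% of all 4023 genes tested were called. A single member, Slc12a8, was called both here and in the mean over time points. Of the 12 members, 6 had their lowest value at time point 7 and 2 at time point 6.

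**Figure D2:**
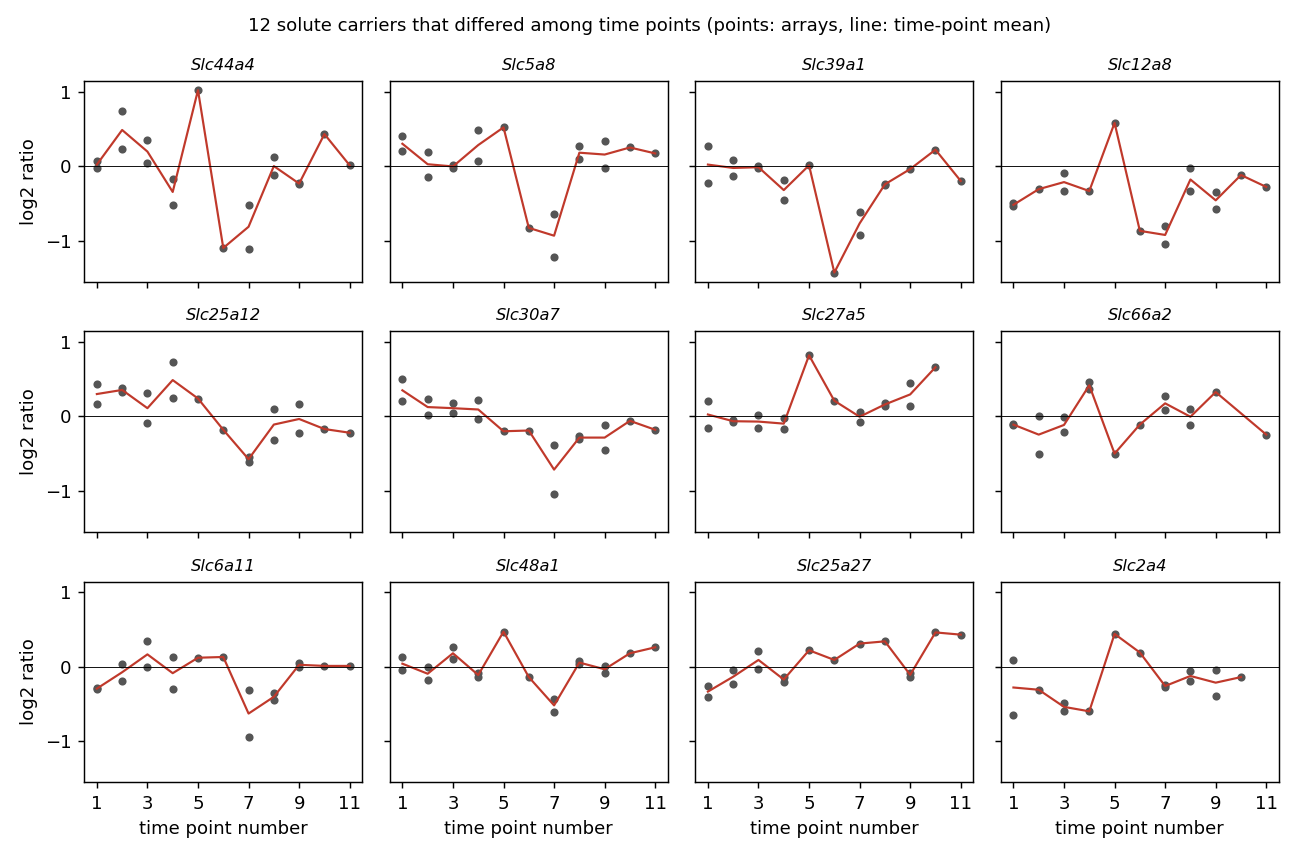
Log2 ratio (vertical axis, relative to the array median) against the number of the time point for the 12 members called by the F test, in order of their p. Points are arrays and the line joins time-point means. Slc44a4, Slc5a8, Slc39a1 and Slc12a8 lay far below 0 at time points 6 and 7. The time-point means of Slc25a12 and Slc30a7 passed from above to below 0.

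Slc44a4 changed most, with an adjusted p of 8.09e-11. Its values were 1.02 at time point 5, -1.10 at time point 6 and -0.52 and -1.11 on the arrays of time point 7. At time point 2 it lay at 0.23 and 0.74, at time point 4 at -0.18 and -0.52, and on all other arrays between -0.24 and 0.43. The drop from time point 5 to 6 was the widest among the 12. The ratio was back between -0.12 and 0.12 at time point 8.

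Slc5a8 had an adjusted p of 6.94e-08. It lay at 0.52 at time point 5, at -0.83 at time point 6 and at -0.65 and -1.22 at time point 7. On the arrays of the other time points it lay between -0.14 and 0.49, so that time points 6 and 7 did not overlap with the rest. Slc39a1 (adjusted p 1.32e-06) lay at -1.43 at time point 6 and at -0.93 and -0.61 at time point 7, and between -0.46 and 0.27 on every other array. Its ratio was 0.01 at time point 5, so that the high value seen there in Slc44a4 was not shared.

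Slc12a8 (adjusted p 4.59e-05) was below 0 at all time points but the fifth. It lay at 0.58 at time point 5, at -0.87 at time point 6, at -1.04 and -0.81 at time point 7, and between -0.57 and -0.02 elsewhere. The profiles of these 4 carriers resembled each other over the 11 time-point means, with correlations between 0.661 (Slc39a1 and Slc12a8) and 0.904 (Slc44a4 and Slc12a8). Without time point 7 these were 0.593 and 0.880. These 4 were grouped after their values were seen, and the heme carrier Slc48a1 was as close to some of them, with 0.859 to Slc12a8, 0.772 to Slc44a4 and 0.766 to Slc5a8. The points share arrays, and the correlations describe these samples only.

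Place on the array was compared for these 4. Their probes lie in 4 different blocks of 540 probe numbers. The median of the other spots of the block was between -0.22 and 0.14 on the arrays of time points 6 and 7 and between -0.35 and 0.16 at time point 5. The part of place on the array in their profiles was not tested. Time points 5 and 6 have 1 array each, and the array of time point 5 was the widest. Without time point 5 the adjusted p was 3.66e-08 for Slc44a4, 2.93e-07 for Slc5a8, 1.90e-06 for Slc39a1 and 0.018 for Slc12a8. Without time points 5 and 6 it was 1.08e-05, 1.48e-05, 0.012 and 0.048. With the 7 time points of 2 arrays alone, Slc12a8 was not called (adjusted p 0.061).

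Slc25a12 and Slc30a7 formed another pattern. Slc25a12 exchanges mitochondrial aspartate for glutamate and belongs to the malate-aspartate shuttle. Its time-point means lay between 0.11 and 0.49 at time points 1 to 4 and between -0.22 and -0.04 at time points 8 to 11, with -0.61 and -0.54 on the arrays of time point 7 (adjusted p 0.000431). Slc30a7, which moves zinc into the Golgi, lay between 0.09 and 0.35 at time points 1 to 4 and between -0.29 and -0.06 at time points 8 to 11. On the arrays of time point 7 it lay at -1.04 and -0.39 (adjusted p 0.00113). The early and late means of both genes did not overlap, though for Slc25a12 single arrays did. Slc25a12 lay at -0.09 on an array of time point 3 and at 0.10 and 0.16 on arrays of time points 8 and 9. Both genes were paired, and the time points compared were chosen, after their values were seen. How many of all genes behaved so was not counted. The profiles of Slc25a12 and Slc30a7 had a correlation of 0.811 over 11 time points, and of 0.665 without time point 7.

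Slc25a27, a brain-type uncoupling protein, ran in the opposite direction (adjusted p 0.0242). It lay at -0.26 and -0.41 at time point 1 and at 0.46 and 0.43 at time points 10 and 11, each 1 array. At time point 9 it lay at -0.14 and -0.08. Its means ran from -0.335 to 0.09 at time points 1 to 4 and from -0.11 to 0.46 at time points 8 to 11, so they overlapped. Its correlation with Slc25a12 was -0.709 over 11 time points. Its call was lost without the second array of time point 1 or the first array of time point 2, and with the 7 time points of 2 arrays alone.

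**Figure D3:**
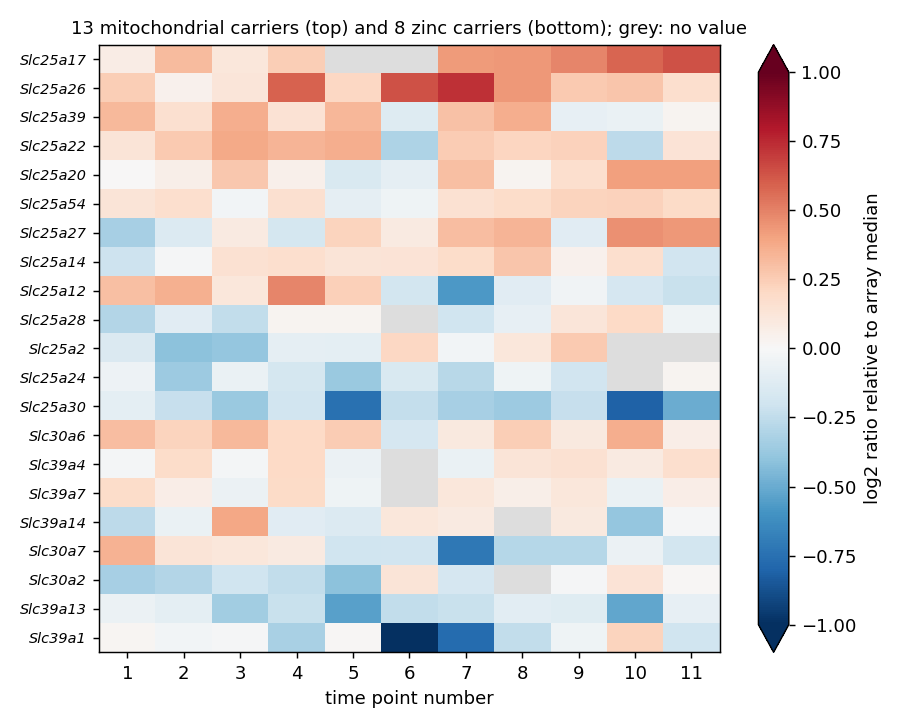
Time-point means of the log2 ratio (colour, relative to the array median, capped at -1 and 1) for the 13 tested mitochondrial carriers above and the 8 tested zinc carriers below, each ordered by mean. Columns are time points and grey marks no value. Slc25a17 has its most positive cells at time points 8 to 11, though the F test did not call it, and the darkest blue cell is Slc39a1 at time point 6 (-1.43).

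The remaining F-test calls were weaker. The GABA carrier Slc6a11 (adjusted p 0.0209) lay at -0.95 and -0.31 at time point 7 and at -0.36 and -0.45 at time point 8, and its call was lost in 3 of 14 repeats without 1 array. The heme carrier Slc48a1, the 1 tested member of the vitamin, folate and heme families, had a mean of 0.03 ± 0.26 (n = 11, adjusted p 0.81) and differed among time points (adjusted p 0.0224). It lay at -0.61 and -0.43 at time point 7 and at 0.47 at time point 5. The liver fatty acid carrier and bile acid ligase Slc27a5 (adjusted p 0.00684) was highest at time points 5 (0.82) and 10 (0.66), each 1 array, and lay at 0.45 or below on the others. Slc2a4 (adjusted p 0.0280) lay at -0.49 and -0.59 at time point 3 and at 0.44 at time point 5. Slc27a5 and Slc2a4 have spots at position 4. With the first 4 positions blanked at time points 5 and 6, Slc27a5 was not called (adjusted p 0.091) and Slc2a4 had too few values for the test. Without time point 5 these calls, other than that of Slc6a11, were lost, with adjusted p of 0.087 for Slc48a1, 0.13 for Slc27a5, 0.26 for Slc2a4 and 0.073 for Slc66a2. For Slc66a2 (adjusted p 0.0193) the 3 probes disagreed: probe 15076 had a mean of 0.35, probe 10088 of -0.16 and probe 15374 of -0.21.

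On all 20 arrays the F test called 2 of 58 members, Slc39a1 (adjusted p 0.031) and Slc25a17 (adjusted p 0.032), and 7% of all genes. The spot of Slc25a17 lies at raised position 1, which is not blanked in this setting. Its mean was 0.55 ± 0.61 (SD, n = 10) there, against 0.37 ± 0.20 (n = 9) on the 18 arrays. Its call on all 20 arrays therefore includes a spot that was left out of the main test. Slc39a1 is the 1 carrier called by both sets of arrays. Of the 10 carriers set aside by the rule, 7 could be tested on the 18 arrays and 4 differed among time points.

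Single time points were tested where 2 arrays remained. There were 38 calls in 24 different members, of which 3 rested on a value from 1 array. The share of all genes called at any of these time points was not counted, so this count is no result about the class. At time point 7, 11 of 62 members were lower (17.7%) and 5 were higher (8.06%), against 12.4% lower and 14.8% higher among all genes. The 2 arrays of this time point were also wider than most. The lower members were Slc5a8 (-0.94), Slc12a8 (-0.93), Slc44a4 (-0.82), Slc39a1 (-0.77), Slc30a7 (-0.72), Slc6a11 (-0.63), the choline carrier Slc44a1 (-0.59), Slc25a12 (-0.58), Slc13a2 (-0.53, from 1 array), Slc48a1 (-0.52) and Slc22a18 (-0.40). The higher ones were Slc25a26 (0.73), Slc7a6os (0.63), Slc6a20a (0.46), Slc25a17 (0.43) and Slc41a3 (0.42). Of 8 tested zinc carriers 2 were lower and 0 higher, and of 9 mitochondrial carriers 1 was lower and 2 were higher. These counts are too small for a result about either group. With the spread of the arrays made equal, 9 members were lower and 2 higher, and on all 20 arrays 6 and 1.

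**Figure D4:**
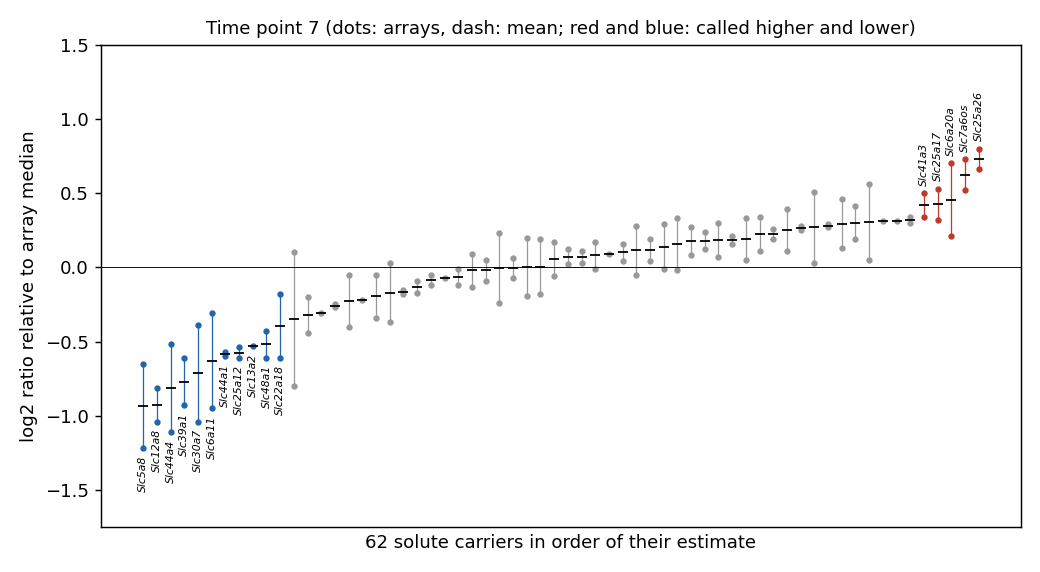
Log2 ratio (vertical axis, relative to the array median) at time point 7 for 62 members in order of their mean (horizontal axis). Dots are the arrays, joined by a line, the dash is the mean, and called members are named in blue (11 lower) or red (5 higher). Both arrays lie on the same side of 0 for each named member with 2 values.

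At time point 4, 6 members were higher and 3 lower of 62, against 14.9% and 9.22% of all genes. The higher ones were Slc6a20a (0.64), Slc25a26 (0.59), Slc25a12 (0.49), Slc22a17 (0.43), Slc66a2 (0.42) and Slc7a15 (0.40). The lower ones were Slc6a13 (-0.64, from 1 array), Slc2a4 (-0.60, from 1 array) and Slc13a2 (-0.45). Slc25a12 was thus called higher at time point 4 and lower at time point 7. On an array of time point 4, the second channel's label names cells without glutamine. Whether this bears on the calls of this time point was not tested. The call of Slc66a2 rests on 1 of its probes: with the probe of most values alone the estimate was -0.23.

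At time point 1, 3 members were higher (14.6% of all genes) and 2 lower (5.47%). These were Slc16a8 (0.50), Slc6a19 (0.46) and Slc22a17 (0.37) against Slc12a8 (-0.52) and Slc27a4 (-0.44). At time point 2, 3 were higher (2.26% of all genes) and 0 lower (1.54%): Slc6a20a (0.55), Slc44a4 (0.49) and Slc6a19 (0.49). At time point 3, 1 was higher (7.16% of all genes), Slc7a6os (0.45), and 1 lower (4.49%), Slc2a4 (-0.54). At time point 8, 1 of 57 was higher (3.4% of all genes), Slc25a17 (0.43), and 0 were lower (3.14%). At time point 9, 1 was higher (4.93% of all genes), again Slc25a17 (0.49), and 1 lower (4.71%), again Slc12a8 (-0.46). Slc25a17 was thus called higher at time points 7, 8 and 9, and Slc12a8 lower at time points 1, 7 and 9.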

How the data were processed

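The deposited values, 1 column per array, were read as log2 ratios, Cy5 over Cy3. Per the labels, control RNA carried Cy3 and experimental RNA Cy5. The log base and this direction are assumptions. Scanner, spot filter and normalization: not given in the sources used here. Deposited data hold 17280 probes. The platform annotation gave 14718 of them 1 symbol and 1 several, while 2562 had no usable symbol. All 246 members matched RefSeq without a change of symbol. Each array was centred on its median and probes of a symbol were averaged.

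Tests used R 4.3.3 and limma 3.58.1 on all genes, with Benjamini-Hochberg adjustment and a threshold of 0.05. The mean over time points was tested on time-point means in genes with 9 or more. The F test and single time points used genes with a value on 14 or more of the 18 arrays. Neighbouring time points may not be independent. The scripts were tested on simulated data. The members, lists and the choice of arrays were made with earlier results of these data known. Named are all called members, the 3 highest and 3 lowest means, amino acid carriers left in by the rule, leaders of groups without a call, and further members of each group chosen after their values were seen. Alternatives changed the arrays, centring, scale, probes, filters and prior. Blanking of the first 4 positions was among those added after seeing the data.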

Additional observations from a re-analysis of the deposited data

Results flagged for a closer look

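For 12 members the ratio of glutamine-varied to control flasks differed between time points, by the F test of limma across all genes. This was 19.4% of the 62 tested, while 30.6% of all 4023 genes tested were called, so the count is no result about the class. The p-values measure the spread between arrays at the 7 time points with 2 arrays, which may be technical. The adjusted p was 8.09e-11 for Slc44a4, 6.94e-08 for Slc5a8, 1.32e-06 for Slc39a1, 4.59e-05 for Slc12a8, 0.000431 for Slc25a12 and 0.00113 for Slc30a7. It was 0.00684 for Slc27a5, 0.0193 for Slc66a2, 0.0209 for Slc6a11, 0.0224 for Slc48a1, 0.0242 for Slc25a27 and 0.028 for Slc2a4. The widest span of time-point means was 2.12 for Slc44a4, with -1.10 at time point 6 and 1.02 at time point 5. On all 20 arrays 1 of the 12, Slc39a1, was still called. The calls of Slc27a5, Slc66a2, Slc48a1 and Slc2a4 were lost without time point 5.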

How the results depend on the processing

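For most settings below the share of all genes was not counted, so the counts are no result about the carriers. Without centring, 49 members were higher and 0 lower in the mean, 54 higher and 5 lower at any single time point, and 35 higher and 5 lower at time point 7. Every gene's ratio is then higher by the array median. The means of Slc25a24 (0.08), Slc27a4 (0.0595), Slc35e3 (0.0582) and Slc39a13 (0.0177) then turned positive, and with 1 probe per symbol Slc66a2 at time point 4 was -0.23. The count lower in the mean was 18 with 6 or more time points, 22 with the 7 time points of 2 arrays and, chosen after seeing the data, 19 without time points 5 and 6, where more genes were tested. On all 20 arrays 2 members differed among time points, 8 were lower at any time point, and 6 were lower and 1 higher at time point 7. With equal spread 7 differed among time points and 2 were higher at time point 7. The count lower at any time point was 24 with 10 or more arrays and 6 with all 18, and 6 at time point 7 with all 18. A replicate block for the arrays titled r gave 12 members that differed among time points and 12 higher and 13 lower at any time point. The r arrays' deviations had correlations of -0.432 to 0.332 over 21 pairs of time points, with a median of -0.0523, and what r marks is unknown. Chosen after seeing the data, blanking the first 4 positions at time points 5 and 6 gave 18 higher and 10 lower in the mean and 10 that differed among time points. Leaving out 1 array or time point gave 13 to 18 higher and 7 to 13 lower in the mean, 10 to 16 by the F test, and 10 to 19 higher and 8 to 16 lower at any time point. The 19 came without the first array of time point 7, and the 8 and 9 lower without its first and second array, when that time point was not tested. At time point 7 the range was 11 to 12 lower and 5 to 7 higher. Of 24 calls in the mean, 19 kept their side of the threshold in every such repeat, as did 7 of 12 by the F test. Of the 24 calls 18 were called with the same sign on all 20 arrays. Causes of these shifts, beyond the genes and arrays entering each test, were not tested.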

Other observations

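Other genes of transport were sparsely measured. Of the 11 listed efflux pumps 1 could be tested, Abcc6, at -0.04 ± 0.11 (SD, n = 10, limma adjusted p 0.55). Of the 7 listed organic anion carriers 1 could be tested, Slco2a1, at 0.03 ± 0.23 (n = 11, adjusted p 0.75). The copper pump Atp7a was higher at 0.20 ± 0.16 (n = 11, adjusted p 0.014), and the transferrin receptor Tfrc lay at -0.11 ± 0.24 (n = 11, adjusted p 0.23). The mitochondrial outer membrane channel Vdac1 lay at -0.07 ± 0.56 (n = 9, adjusted p 0.75).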
